A study of Homo sapiens with 2 samples.

Results

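The genes described here are the nuclear-retained RNAs NEAT1, MALAT1 and MIAT and the messenger RNAs of 6 proteins found in paraspeckles, namely SFPQ, NONO, PSPC1, RBM14, TARDBP and EWSR1. They were chosen by symbol from the table of all genes, and all 9 were found among 27685 genes listed. The choice was made with earlier results of these libraries known, so their ratios are a description and carry no test. RNA came from NCI-H838, an established line of human lung adenocarcinoma cells, 48 hours after lipid-mediated transient transfection. The cells of the first library, called LINC00472 below, received a plasmid with full-length LINC00472, a long intergenic noncoding RNA (pCDH-LINC00472). The control cells received the pCDH empty vector. Each group held 1 library, so no difference has a replicate check, and intervals cover counting error only. How many cells took up the plasmid is not given in the sources used here. In RNA from whole cultures, a change in every cell and a change in some cells cannot be told apart.

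Paraspeckles are bodies in the nucleus of mammalian cells that assemble on the long form of NEAT1. The proteins SFPQ, NONO and PSPC1 belong to the same family, form pairs with each other and coat that RNA, and further proteins such as RBM14 and TARDBP join the body. MALAT1 is an abundant RNA of nuclear speckles, the neighbouring bodies that hold splicing factors. MIAT, also called Gomafu, forms a separate scattered pattern in the nucleus and is best known from neurons. Only RNA was measured here, so neither the proteins nor the bodies themselves were seen.

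The ends of the long NEAT1 form and of MALAT1 are made without a poly(A) tail, by cleavage with RNase P, and are known to fold into a triple helix between U-rich and A-rich stretches. These stretches are shown because they set NEAT1 and MALAT1 apart from ordinary messenger RNAs. The MIAT stretch shows repeats known to bind the splicing factor SF1. All are on the plus strand of GRCh38, from GENCODE 29 transcripts with T for U, and the deposited data use hg19. Capitals mark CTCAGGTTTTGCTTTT, the longest stretch that the ends of NEAT1 (chr11:65445474-65445540) and MALAT1 (chr11:65506055-65506126) share, and AAAAAGCAAAA, the end of NEAT1 as far as MALAT1 also holds it. They mark TACTAAC in MIAT (chr22:26672023-26672235).
NEAT1: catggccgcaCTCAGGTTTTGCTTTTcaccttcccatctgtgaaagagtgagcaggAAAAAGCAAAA
MALAT1: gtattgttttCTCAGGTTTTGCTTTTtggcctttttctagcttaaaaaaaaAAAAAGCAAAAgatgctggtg
MIAT: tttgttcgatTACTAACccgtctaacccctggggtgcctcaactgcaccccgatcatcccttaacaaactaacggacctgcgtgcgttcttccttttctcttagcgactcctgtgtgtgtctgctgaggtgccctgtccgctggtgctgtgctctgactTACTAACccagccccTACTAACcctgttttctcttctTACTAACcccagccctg

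In NEAT1 the A-rich motif forms the last bases of the annotated RNA, 30 bases after the U-rich motif. In MALAT1, 25 bases lie between the motifs as marked, and the final 10 bases shown are the start of the small tRNA-like RNA mascRNA, which RNase P releases. Of 55338 transcripts of at least 200 bases with noncoding types in GENCODE 29, read on their own strand, 0.286% held AAAAAGCAAAA. Types were those of the transcript and included processed transcripts, so noncoding forms of protein-coding genes may be counted. The longer U-rich stretch, followed by the A-rich one within 150 bases, was found in 2 of the 55338, 1 of NEAT1 and 1 of MALAT1. The letters were taken from these RNAs, so that count follows from the choice. MIAT held 7 copies of TACTAAC in 10069 bases, of which 4 are shown, whereas the long NEAT1 form held 1 and MALAT1 held 0. At least 7 copies were present in 5 of the 55338 transcripts (0.00904%), 4 of them MIAT transcripts. The GU repeat TGTGTG, the kind of sequence TARDBP binds, occurred 76 times in NEAT1 with overlapping matches counted, or 3.34 times per kilobase. Many of these matches overlap in a few short runs, the longest with starts from position 21467 to 21519, which raise the rate. TGTGTG occurred 4 times in MALAT1 (0.459 per kilobase) and 8 times in MIAT (0.795 per kilobase). Among the 500 of these noncoding-type transcripts with at least 5000 bases the median was 0.503 per kilobase, and 2 exceeded NEAT1.

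**Figure D1:**
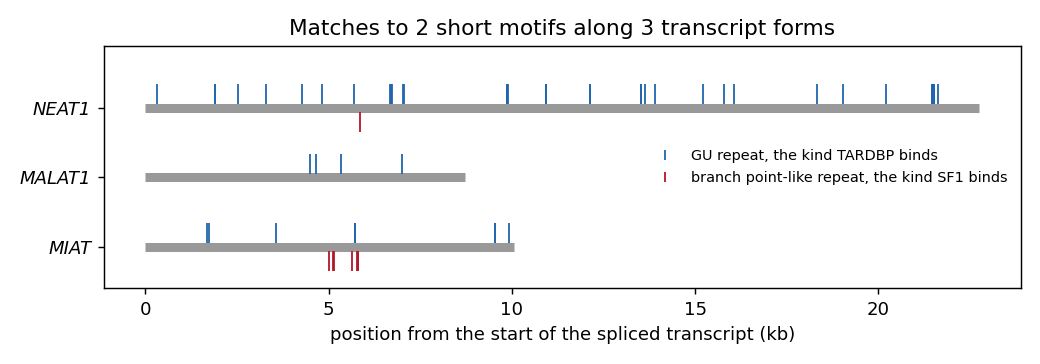
Matches to TGTGTG (blue, above each bar) and TACTAAC (red, below) along transcript forms of NEAT1 (22743 bases), MALAT1 (8708 bases) and MIAT (10069 bases), by distance in kilobases from the transcript's start. The 7 red marks of MIAT lie together near its middle. Many of the 76 blue matches of NEAT1 overlap in a few short runs, and the rest are scattered along it.

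The LINC00472 library held 21093055 gene counts and the control 54823706, so the control was sequenced more deeply. LINC00472 itself had 5655 counts in LINC00472 cells and 2563 in control cells, 4.69-fold higher after scaling. Counts were scaled with TMM factors, and a gene was called higher or lower where its mean was at least 1 CPM (counts per library total, on a common scale), its ratio at least 2-fold, and its 95% counting interval excluded equality. By this rule 16.3% of 14012 genes were higher and 23.8% were lower, with a median log2 ratio of -0.19 over all genes. The higher side held 40.6% of all calls by TMM, 57.9% by total counts (median 0.11) and 63.9% by upper quartile factors (median 0.21), so a member's direction is read against them. Epithelial markers were present, and their summed level was 118 CPM in the LINC00472 library against 542 CPM in the control for 6 genes, led by keratins KRT8 and KRT18. Of the 5 at 1 CPM, 3 keratins were lower. CDH1 (239 against 368 counts, log2 0.47) and EPCAM (log2 -0.19) met neither rule. Of 5 lung adenocarcinoma markers, NKX2-1 and SFTPB had 0 counts in either library, which allows up to 3 counts in each, and SFTPC had 0 against 7. NAPSA had 88 against 66 counts (log2 1.49, called higher) and MUC1 259 against 743 (log2 -0.43). Summed leukocyte markers (5 genes) were 31.7 CPM against 36.4 CPM, endothelial ones (4 genes) came to at most 1.50 CPM, and fibroblast ones (6 genes) 13.8 CPM against 17.7 CPM. Among the leukocyte markers CD14 was called higher (299 against 256 counts, log2 1.31), and CD68 had 432 against 1498 counts (log2 -0.70). CD3E and KDR were at 0 in both libraries, and PTPRC and PECAM1 at 0 in the LINC00472 library. What part such shifts have in the results below was not tested.

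Of the 9 members, all of which reached 1 CPM, 2 were higher (NEAT1 and MIAT), 1 was lower (NONO) and 6 met neither rule. Over all 14012 genes 16.3% were higher and 23.8% lower, and of long noncoding RNAs, the class of NEAT1 and MIAT, 51.0% were higher. NEAT1, whose long form is the scaffold of paraspeckles, had 405102 counts in LINC00472 cells and 96676 in control cells. Per length this was 758 FPKM against 74.8 FPKM in the deposited values. The TMM ratio was 8.92-fold (log2 3.16, 95% counting interval 3.15 to 3.17). NEAT1 took 1.92% of all counts (exact Clopper-Pearson 95% interval 1.915 to 1.926) against 0.176% (0.1752 to 0.1775). MALAT1 had 151931 counts in the LINC00472 library against 184081 in the more deeply sequenced control, or 745 FPKM against 373 FPKM. Its ratio was 1.76-fold (log2 0.81, interval 0.80 to 0.82), short of the 2-fold rule with TMM. It passed that rule by total counts (log2 1.10) and by upper quartile factors (1.20).

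MIAT was far less abundant than NEAT1 and MALAT1 in both libraries. It had 2153 counts in LINC00472 cells and 237 in control cells, or 9.08 FPKM against 0.410 FPKM. Its ratio was the highest of the 9, at 19.3-fold (log2 4.27, interval 4.08 to 4.47). Together the 3 RNAs took 2.65% of counts in LINC00472 cells and 0.513% in control cells. The other 4870 long noncoding RNAs made up 1.48% against 0.796%.

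**Figure D2:**
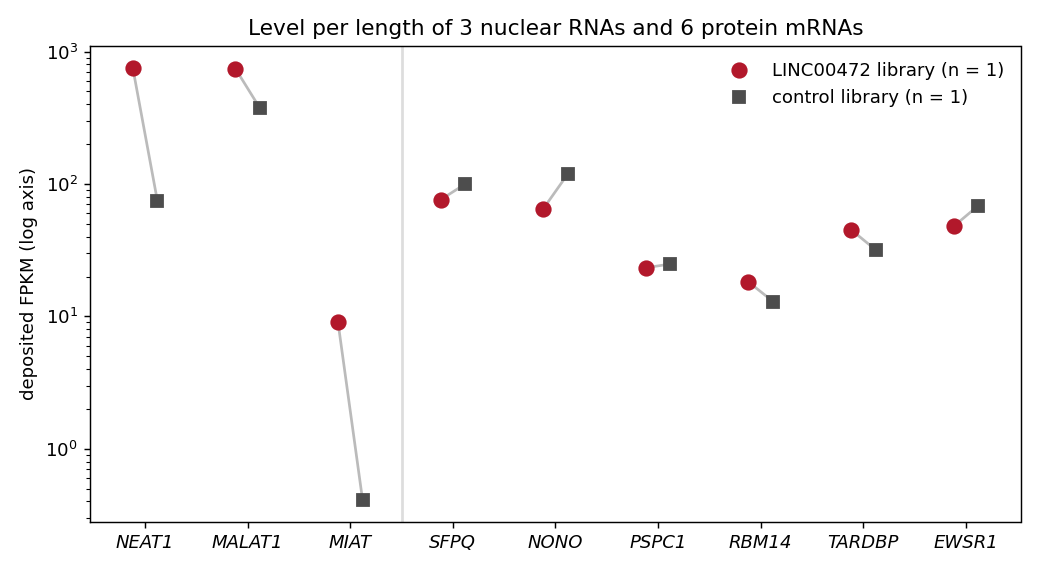
Deposited FPKM on a log axis for the 9 genes in the LINC00472 library (red circles, left) and the control library (grey squares, right), 1 library each with no error bars. NEAT1 and MALAT1 stand at 758 and 745 FPKM in LINC00472 cells, while at 74.8 FPKM control NEAT1 stands among the messenger RNAs.

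Within a library, the ratio of a pair of genes does not depend on scaling. NEAT1 and MALAT1 had nearly equal FPKM in the LINC00472 library, a NEAT1 to MALAT1 ratio of 1.02, against 0.200 in the control. The log2 ratios of the pair differed by 2.34 (counting interval 2.33 to 2.36). The ratio of MIAT to NEAT1 in FPKM was 0.0120 in LINC00472 cells and 0.00548 in control cells. By FPKM, NEAT1 ranked 1 and MALAT1 ranked 2 among 4873 long noncoding RNAs in the LINC00472 library. In the control NEAT1 ranked 9 and MALAT1 ranked 1. MIAT ranked 167 in LINC00472 cells and 1012 in control cells. NEAT1 held 46.5% of all counts of long noncoding RNAs in LINC00472 cells and 13.5% in control cells, while MALAT1 held 17.4% against 25.7%.

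Long noncoding RNAs as a class were higher, and the nuclear body RNAs took different places in it. Of 1010 at 1 CPM or more, 515 (51.0%) were higher and 53 (5.25%) were lower, with a median log2 ratio of 1.05. The ratio of MIAT was exceeded by 2 of them and that of NEAT1 by 35. The ratio of MALAT1 was exceeded by 570, so it lay below the median of its class. Among 42 long noncoding RNAs with transcripts of at least 5000 bases, the median was 1.23, and 0 exceeded MIAT, 1 exceeded NEAT1 and 26 exceeded MALAT1. Among 16 with a mean of at least 100 CPM, none exceeded NEAT1, and 7 were higher and 3 lower. With TMM factors computed within long noncoding RNAs alone, NEAT1 was at log2 2.08 and MIAT at 3.20, and MALAT1 turned to -0.26. With ratios adjusted for the length, GC content and introns of the transcript, NEAT1 was at 2.22, MIAT at 4.23 and MALAT1 at 0.23.

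**Figure D3:**
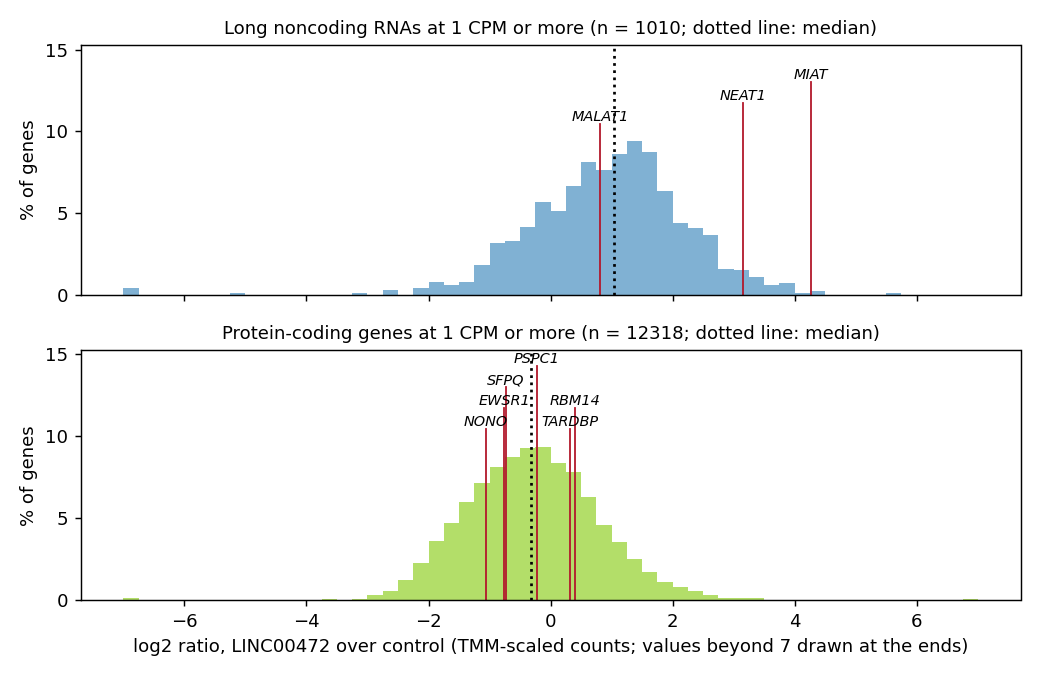
Distribution of log2 ratios, LINC00472 over control, as the percent of genes per bin for 1010 long noncoding RNAs (upper panel) and 12318 protein-coding genes (lower panel) with a mean of at least 1 CPM, with the 9 members as red lines and class medians (1.05 and -0.32) dotted. NEAT1 and MIAT lie in the upper tail of their class, MALAT1 lies just below its class median, and the 6 messenger RNAs lie within the body of theirs.

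The transcripts beside these RNAs were also counted. NEAT1 and MALAT1 lie near each other on chromosome 11. TALAM1, the antisense transcript of MALAT1, had 496 counts in LINC00472 cells and 303 in control cells, a log2 ratio of 1.80 (interval 1.59 to 2.01). The strand setting of the counting is not given in the sources used here, so reads of TALAM1 and MALAT1 may not be separable. MASCRNA, the small RNA cut from MALAT1, and MIR612, a microRNA gene inside NEAT1, had 1 count in each library, too few for a ratio. The protein-coding genes FRMD8, SLC25A45 and LTBP3 nearby were not called in either direction. FRMD8 was at log2 -0.99, SLC25A45 at -0.06 and LTBP3 at 0.31. Beside MIAT on chromosome 22, MIATNB had 347 counts against 122 (log2 2.59, interval 2.30 to 2.91) and was called higher. It overlaps MIAT, so its counts are uncertain. The lens crystallin genes CRYBB1 and CRYBA4 on the other side had 0 counts in both libraries. These neighbours were named after their values were seen.

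The deposited FPKM also shows which length the authors' processing gave each gene. Dividing counts by FPKM, and setting the scale on 3567 protein-coding genes with a single transcript, gave an implied length of 22727 bases for NEAT1 in LINC00472 cells and 22715 in control cells. The annotated long form has 22743 bases. The NEAT1 FPKM is thus per length of the long form, and the data do not separate that form from the short polyadenylated one. MALAT1 had implied lengths of 8670 and 8663 bases, and MIAT 10089 and 10169 bases. SFPQ differed more, with 2738 bases in the LINC00472 library against 3047 in the control. That ratio, 0.899, lay at percentile 2.30 of 11633 genes with at least 100 counts in both libraries. RBM14 had 5406 bases against 5047 and PSPC1 2098 against 2023, ratios at percentiles 96.6 and 93.6. EWSR1 had 2370 against 2465 (percentile 5.36). NONO, at 3127 against 3124 bases, and TARDBP, at 4216 against 4217, gave nearly the same length in both. An implied length depends on how the authors' processing divided reads among a gene's listed transcripts.

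The messenger RNAs of the SFPQ, NONO and PSPC1 family were not called higher. NONO, which binds RNA and DNA and pairs with SFPQ, had 4766 counts in LINC00472 cells and 21149 in control cells, or 64.8 FPKM against 119 FPKM. It was 2.09-fold lower (log2 -1.06, interval -1.11 to -1.01), only just past the rule, and was not called lower with total counts (-0.77) or upper quartile factors (-0.67). SFPQ, a splicing factor needed for paraspeckles, had 4894 against 17328 counts and 76.0 FPKM against 99.9 FPKM (log2 -0.73, interval -0.78 to -0.69). PSPC1, short for paraspeckle component 1, had 1150 against 2861 counts and 23.3 FPKM against 24.8 FPKM. Its log2 ratio was -0.23 (interval -0.33 to -0.13) with TMM and turned to 0.06 by total counts and 0.16 by upper quartile scaling. In FPKM, SFPQ was above NONO in the LINC00472 library (SFPQ to NONO ratio 1.17) and below it in the control (0.840). The ratio of PSPC1 to NONO was 0.360 in LINC00472 cells and 0.209 in control cells.

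The other messenger RNAs went in both directions by less than 2-fold. RBM14, a coactivator with prion-like stretches that is needed for paraspeckles, had 2317 counts in LINC00472 cells and 3718 in control cells, or 18.2 FPKM against 12.9 FPKM (log2 0.41, interval 0.33 to 0.48). The overlapping readthrough locus RBM14-RBM4 had 720 against 152 counts (log2 3.33), so the division of reads between them is uncertain. TARDBP, the RNA-binding protein TDP-43, had 4481 against 7634 counts and 45.2 FPKM against 31.8 FPKM (log2 0.32, interval 0.27 to 0.37). EWSR1, a relative of TAF15, had 2665 against 9623 counts and 47.8 FPKM against 68.6 FPKM (log2 -0.76, interval -0.83 to -0.70). In the LINC00472 library TARDBP and EWSR1 stood at a ratio of 0.945 in FPKM, against 0.464 in the control. Reads from processed pseudogenes of these genes may be shared, which the sources used here do not settle.

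Taken as a group, the 6 messenger RNAs were close to other protein-coding genes. Their median log2 ratio was -0.48, beside -0.32 for 12318 protein-coding genes, of which 11.2% were higher and 26.3% lower. Since ratios were higher for longer transcripts in these libraries, each was also set against the length decile of its longest matched annotated transcript. The median log2 ratio of protein-coding genes was -1.41 in the decile of shortest transcripts and 0.30 in that of longest ones. NONO was above 286 of the 1219 genes in its decile, whose median was -0.31. SFPQ was above 377 of 1220, PSPC1 above 862 of 1220, RBM14 above 939 of 1219, TARDBP above 826 of 1220 and EWSR1 above 489 of 1220. The annotated length differed from the implied one, so these deciles are uncertain. RBM14 was placed at 2828 bases, shorter than implied, and SFPQ at 3747 and TARDBP at 5367, longer than implied. The summed share of the 6 messenger RNAs was 0.0961% of counts in LINC00472 cells and 0.114% in control cells.

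At the RNA level NEAT1, both forms together, stood higher against the protein genes in LINC00472 cells. Its class also did, with a median log2 ratio of 1.05 for long noncoding RNAs against -0.32 for protein-coding genes. The ratio of NEAT1 to NONO in FPKM was 11.7 in LINC00472 cells and 0.629 in control cells, and the log2 ratios of the pair differed by 4.22 (counting interval 4.17 to 4.26). NEAT1 to SFPQ was 9.97 against 0.748, and NEAT1 to RBM14 was 41.6 against 5.78. In the control, NEAT1 had fewer FPKM than NONO and SFPQ, and in the LINC00472 library it had more than each of the 6 messenger RNAs. MALAT1 to NONO was 11.5 against 3.14.

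**Figure D4:**
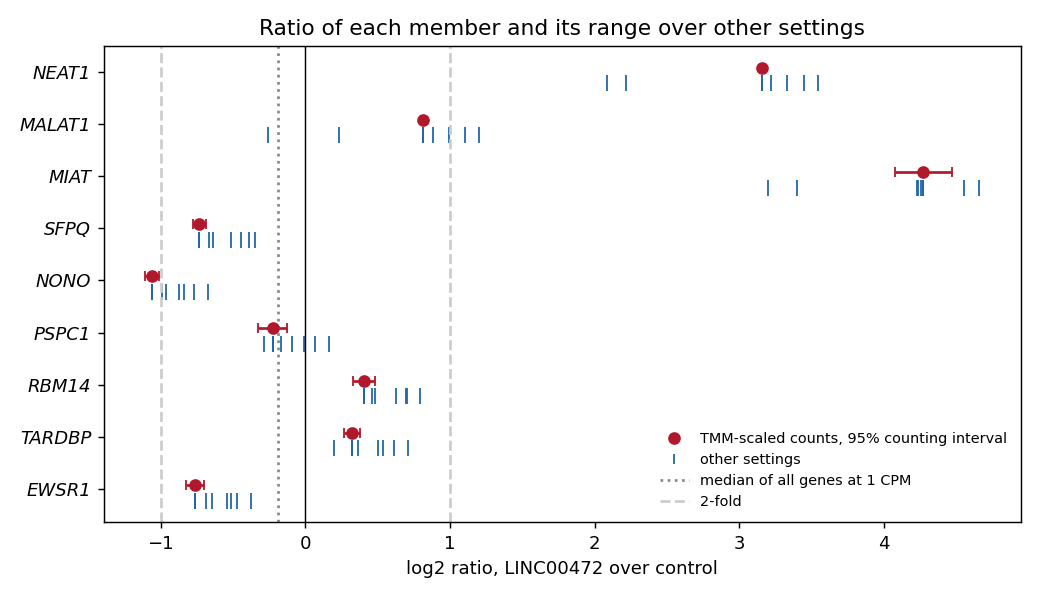
Log2 ratio, LINC00472 over control, for each of the 9 genes with TMM scaling (red, bars are 95% counting intervals) and under the other settings tried (blue ticks), with dashed lines at 2-fold and a dotted line at the median of all genes (-0.19). NEAT1 and MIAT stay above 2-fold in every setting that gave them a value, NONO lies on either side of the lower line, and MALAT1 and PSPC1 have ticks on both sides of 0.

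Other proteins reported in paraspeckles included both higher and lower genes. Of 30 genes, 4 were higher, 8 were lower and 18 met neither rule, with a median log2 ratio of -0.30. Among all protein-coding genes, 11.2% were higher and 26.3% lower. With total counts 5 of the 30 were higher and 5 lower, and with upper quartile factors 7 were higher and 5 lower. On the lower side, CIRBP and HNRNPM, an RNA-binding protein induced by cold and a splicing regulator, were 3.82-fold (460 against 3737 counts) and 3.56-fold lower (1391 against 10535 counts). HNRNPK and DAZAP1, which knockdown in human cells has shown to be needed for paraspeckles, were 2.70-fold and 3.06-fold lower. On the higher side, ZC3H6, a zinc finger protein, was 5.41-fold (1467 against 577 counts) and CPSF6 2.70-fold higher (9768 against 7700 counts). CPSF6 and NUDT21 act together in cleaving the short polyadenylated form of NEAT1, and NUDT21 was at log2 -0.66. TAF15, a relative of EWSR1, was at 1.13 and HNRNPH3 at 0.68. HNRNPA1 and related genes have pseudogene copies, so their counts are uncertain. HNRNPK, DAZAP1, NUDT21, TAF15 and HNRNPH3 were named after their values were seen.

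Nuclear speckle proteins, the companions of MALAT1, were likewise mixed. Of 22, 5 were higher, 4 were lower and 13 met neither rule, and the median was 0.29. The same rule called 11.2% of all protein-coding genes higher and 26.3% lower. Their median, -0.32, lay below that of the speckle list. LUC7L3 and SRSF11, splicing proteins, were 5.17-fold (14364 against 5913 counts) and 4.35-fold higher (13632 against 6666 counts). U2AF1, a subunit of the factor that binds the 3′ splice site, was 3.42-fold lower, and RNPS1, an exon junction protein, 2.43-fold lower. With total counts or upper quartile factors 8 were higher and 1 lower. After adjustment for transcript properties 3 were called higher. Of 3 proteins found with MIAT, SF1 was at log2 -0.03 (1964 against 4261 counts) and QKI at -0.09, and CELF3 had 0 counts in LINC00472 cells and 10 in control cells, below the minimum.

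Genes of RNase P, which cuts the ends of NEAT1 and MALAT1, and the RNase Z gene ELAC2 were lower or met neither rule. Of 13, 8 were lower and 0 higher, and the median was -1.48, beside 26.3% lower and a median of -0.32 over all protein-coding genes. The subunits POP7 and RPP25 were 5.87-fold (129 against 1614 counts) and 5.13-fold lower (174 against 1901 counts). POP1 was at log2 -0.61 and RPP30 at -0.22. RPPH1, the RNA of RNase P, was at -1.08, and ELAC2, the RNase Z, at -0.99, both named after their values were seen. With ratios adjusted for transcript properties 6 were lower, POP7 was at -1.96 and RPP25 at -2.44.

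Other long noncoding RNAs were grouped by where in the cell they are known to be found. Of 12 listed as nuclear-enriched, 5 reached the minimum, of which FTX was higher (3.90-fold, 732 against 399 counts) and 0 were lower, and their median was 0.75. Over all long noncoding RNAs 51.0% were higher. With total counts 3 of the 5 were higher, with upper quartile factors 4 and with scaling within long noncoding RNAs 0. HOTAIRM1 was at log2 0.87, HOTAIR at 0.70 and JPX at 0.49. Of 11 that act mainly in the cytoplasm or are short spliced snoRNA hosts, 0 were higher and 0 lower, and the median was -0.37. With scaling within long noncoding RNAs 7 of these 11 were lower, and with adjusted ratios 2 were. SNHG1 was at 0.31 and GAS5 at 0.28, while DANCR was at -0.97 and OIP5-AS1 at -0.93. NEAT1 and MIAT lay above every member of both lists that reached the minimum. Of 12 proteins of Cajal and other nuclear bodies, 6 were lower and 0 higher (median -1.10), beside the same 26.3% of protein-coding genes. With adjusted ratios 5 were lower. SMN2 was called lower (173 against 1199 counts) and its paralog SMN1 was not called (904 against 2418 counts). How reads were divided between these paralogs was not tested, and both were named after their values were seen. NPM1 and FBL, nucleolar proteins, were 4.13-fold and 3.87-fold lower, whereas NPAT was at log2 0.46 and PML at -0.12.

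**Figure D5:**
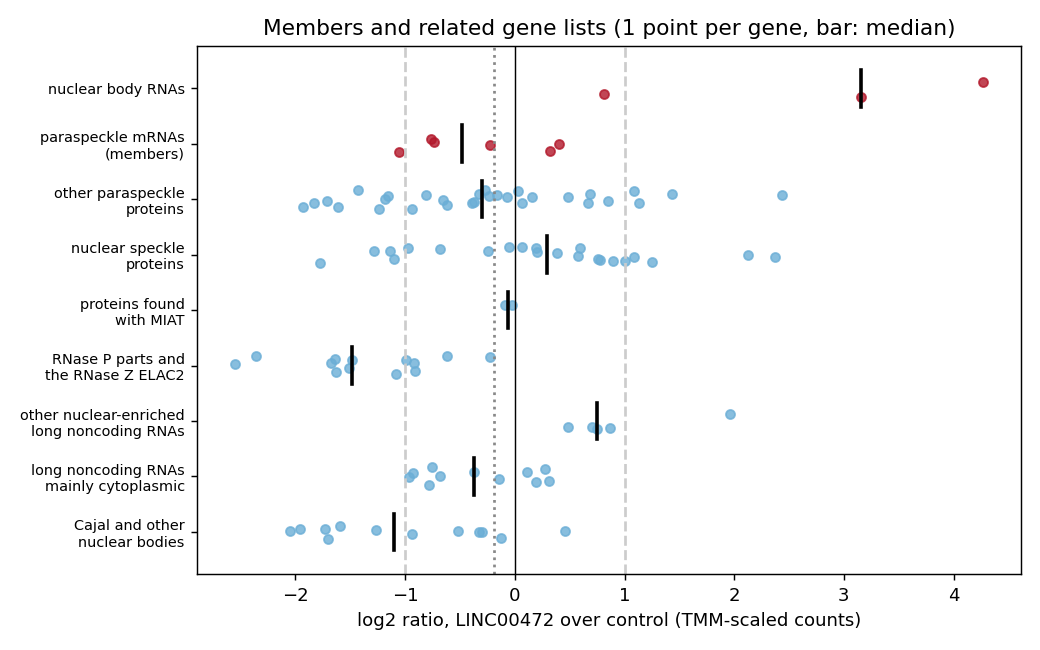
Log2 ratio, LINC00472 over control with TMM scaling, for the 3 nuclear body RNAs and 6 paraspeckle messenger RNAs (red) and for 7 related gene lists (blue), 1 point per gene at 1 CPM or more and a black bar at each median. NEAT1 and MIAT lie to the right of every point of the related lists, while paraspeckle and speckle protein genes spread over both sides of 0.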

How the data were processed

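The authors deposited unnormalized whole-number read counts for each gene, with FPKM (their values per length and library size), once for the series and once for each library. Counts of all 27685 genes were identical between tables. Per the submitters' processing notes, StringTie 1.3.4b, HISAT2 2.1.0, Trimmomatic and bcl2fastq 2.20.0 were used with hg19, with roles not given, and how ribosomal RNA was removed and strand treated is not given in the sources used here. Groups came from the sample titles.

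Counts were scaled with TMM (edgeR 4.0.16, R 4.3.3). Log2 ratios used a prior count of 0.5, and intervals are exact conditional (Clopper-Pearson) 95% intervals of a ratio of counts. Intervals for differences between log2 ratios come from Poisson errors of the 4 counts. Reads are not independent molecules, so intervals and the floor of 3 counts cover counting error only. The procedure was tested on simulated Poisson counts with the scaling given, so that test says nothing on scaling or variation between replicates. Members and lists were chosen with earlier results of these data known. Named genes are the members, LINC00472, the 2 highest and 2 lowest of each list at 1 CPM, the 2 genes nearest to each member, and those stated as named after their values were seen. Some genes of the lists and loci are not reported here by name. A second row named RPP14, whose RefSeq symbol differs, was left out of its list.

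Gene classes came from RefSeq (GRCh38.p14), matched by gene ID for 27555 genes. Transcript properties came from GENCODE 29 for 96.2% of genes at 1 CPM, using the longest matched transcript. Adjusted ratios are residuals of a spline model (5 knots, degree 3; scikit-learn 1.9.0; R squared 0.118). Alternatives were other scalings (DESeq2 1.42.0 among them), prior count, FPKM with 0.5 added, minimums, the single-library tables, a thinned control, scaling within class and adjusted ratios.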

Additional observations from a re-analysis of the deposited data

How the results depend on the processing

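NEAT1 and MIAT were called higher in all settings that gave them a value, 12 for NEAT1 (log2 2.08 to 3.54) and 13 for MIAT (3.20 to 4.66). The other minimums and the single-library tables left the ratio of every member as it was, so those settings could not change a member's call. NEAT1 and MALAT1 belong to the 100 most abundant genes, so without those genes the count of members called higher was 1. NONO was called lower in 7 of 13 settings, each giving log2 -1.06, with the other minimums and the single-library tables among them. The count of members called lower was 0 with total counts, upper quartile factors, FPKM, a thinned control, scaling within class and adjusted ratios. SFPQ, PSPC1, RBM14, TARDBP and EWSR1 met neither rule in all 13. MALAT1 was called higher in 2 of 12 settings, within -0.26 to 1.20. Over all genes, higher calls numbered 3531 with upper quartile factors, 3576 at a minimum of 0.1 CPM, 1347 at 5 CPM and 3657 with no minimum, against 2288, and lower calls 1993 with upper quartile factors, against 3341. MIAT in the control rests on 237 counts, the fewest of any member. No replicate could be left out, since each group held 1 library. No paired analysis was possible because each group held 1 library and the titles carry no replicate number.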

Other observations

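The genes whose levels in both libraries were most like those of each member were found by distance over log2 CPM, with only 2 libraries, so a close neighbour shares a level and a ratio and nothing more. Nearest to NEAT1 were MALAT1, at a distance of 1.69, and AHNAK, at 1.91. AHNAK, a very large scaffold protein, had 109711 counts in LINC00472 cells and 120051 in control cells (log2 ratio 0.96) and was also the nearest gene to MALAT1, at 0.775, followed by the dynein heavy chain DYNC1H1. Nearest to MIAT were MTHFD2L (log2 ratio 3.26), a mitochondrial folate enzyme, and LINC01876 (3.26), at 0.716 and 0.723. The messenger RNAs had close neighbours, at distances of at most 0.0743. These were DDX18 and AGPS for SFPQ, RPL37 and CALD1 for NONO, CHPF and MRS2 for PSPC1, RLF and HMGN3 for RBM14, GLB1 and GAS5 for TARDBP, and IDH1 and MVP for EWSR1.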
